A study of Mus musculus with 6 samples.

Results

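Mesothelial cells of the postnatal mouse lung were picked out of 4 single-cell RNA libraries as the barcodes in which at least 3 of the 6 mesothelial markers Upk3b, Msln, Upk1b, Aldh1a2, Rarres2 and Wt1 had a UMI (a unique molecular identifier, which counts a captured transcript once), with Upk3b or Msln among them. A barcode also needed at least 1500 UMIs in the Bdnf libraries or 700 in the Hgf libraries, a mitochondrial share of at most 25%, and no more than 1 UMI in total over Pecam1, Cldn5, Ptprc, Etv5, Rtkn2 and Foxj1, genes of endothelial, blood, alveolar and ciliated cells. This left 160 mesothelial barcodes among 70426 barcodes that passed the UMI and mitochondrial limits. The study asked what lung pericytes send out to the cells around them, and removed the growth factor gene Bdnf or Hgf from cells that express Pdgfrb. Each of the 4 libraries held the lungs of 2 littermates at P21, depleted of CD45+ and Ter119+ blood cells and digested with collagenase and dispase. All mice received 50 µg tamoxifen on each day from P1 to P3. The Bdnf lox/lox control and the Hgf lox/lox control carried the floxed alleles without CreERT2, and the Bdnf iPCKO and Hgf iPCKO mice carried them together with Pdgfrb(BAC)-CreERT2. Because the controls had no CreERT2, the loss of the gene and the presence of an active recombinase cannot be told apart, and with 1 library per genotype no test between genotypes was possible. Values below are given in the order Bdnf control, Bdnf iPCKO, Hgf control, Hgf iPCKO.

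The mesothelium is the single layer of flat cells that covers the lung as the visceral pleura. Its cells come from mesoderm yet build an epithelium, with keratins beside vimentin, apical microvilli, and a glycocalyx of mucins and hyaluronan that lets the lung slide in the chest. In the developing lung these cells express the transcription factor Wt1 and the retinoic acid synthesis enzyme Aldh1a2, receive hedgehog signals, and are known as a source of growth factors for the mesenchyme beneath them.

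The libraries differed in depth and in the number of mesothelial cells they gave. They held 169814433, 186701379, 73446420 and 69403166 UMIs in all, and 16748, 23765, 14095 and 15818 barcodes passed the limits. Of these, 37 barcodes were mesothelial in the Bdnf control, 106 in the Bdnf iPCKO, 7 in the Hgf control and 10 in the Hgf iPCKO. The shares were 0.221% (95% exact binomial interval 0.156 to 0.304), 0.446% (0.365 to 0.539), 0.0497% (0.0200 to 0.102) and 0.0632% (0.0303 to 0.116). All intervals here cover counting error only, not the differences between mice, digests or libraries. The mutant over control ratio of the share was 1.01 on the log2 scale in the Bdnf libraries (0.46 to 1.59; 0.76, -0.03 to 1.59, with a mitochondrial share of at most 10%) and 0.35 in the Hgf libraries (-1.19 to 1.98), so a difference was not detectable in the Hgf pair at these cell numbers. More cells on the lung surface and a better release of these cells by the digest cannot be told apart. Both Hgf libraries gave a lower share than both Bdnf libraries, whatever the genotype.

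Mesothelial barcodes were somewhat deeper than the other barcodes of their library. Their median UMI count was 9087, 6527, 4219 and 3885.5, against 7191, 5085, 3988 and 2860 over all passing barcodes, and their median mitochondrial share was 9.79%, 10.6%, 13.3% and 8.34%. Summed over cells they gave 351819, 828495, 34344 and 44695 UMIs, so the Hgf values rest on far fewer molecules. All levels below are CPM, the UMIs of a gene scaled to 1000000 UMIs summed over the cells of a class. Scrublet called 9, 21, 4 and 0 of the mesothelial barcodes doublets, so 4 of the 7 Hgf control members were among the calls and were kept. Over all passing barcodes the share called was 13.8%, 14.8%, 2.67% and 2.90%. Counted by position in the list of possible barcodes, pairs of libraries shared 243 to 432 passing barcodes, against the 244 to 436 that chance gives for these numbers. No position was mesothelial in more than 1 library. Standard and enhanced beads, both used in the study, have their own barcode lists, so an equal position need not be an equal sequence.

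**Figure D1:**
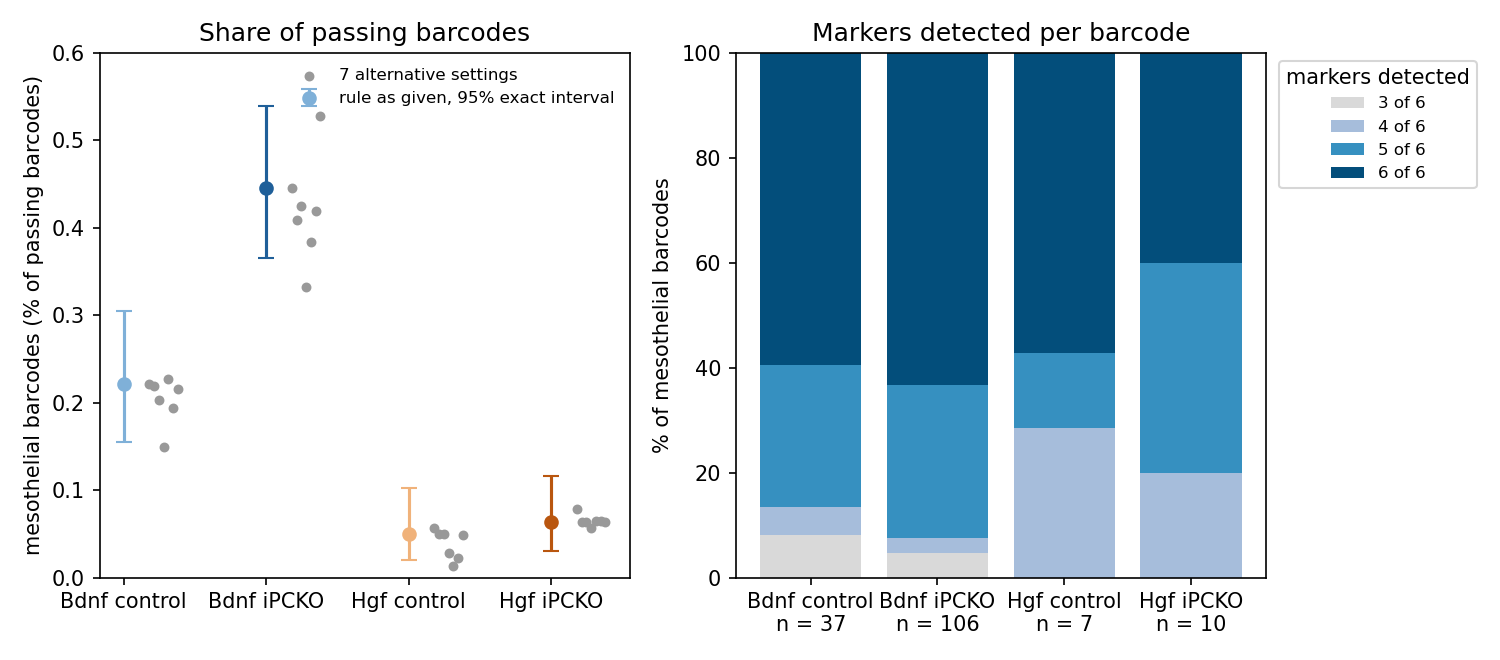
Mesothelial barcodes in the 4 lung libraries. Left, their share of passing barcodes in percent, with 95% exact binomial intervals on the reported value and without intervals for 7 other settings of the rule; right, the percent of members with 3, 4, 5 or all 6 markers detected. The Bdnf iPCKO library sits highest at 0.446% and both Hgf libraries lowest, and most members in each library had 4 or more markers.

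The rule for membership had 2 edges. Of the members, 22, 67, 4 and 4 had all 6 markers, while 3, 5, 0 and 0 had the minimum of 3. The 3-marker members of the Bdnf libraries had no UMI of Lrrn4 and had 5118 and 1959 CPM of Inmt, a gene of matrix fibroblasts. The 6-marker members had Lrrn4 at 419, 409, 384 and 216 CPM. Just outside this edge, 7 and 18 barcodes of the Bdnf control and Bdnf iPCKO with 2 markers also had no Lrrn4, and had 16443 and 44689 CPM of the club cell gene Scgb1a1. At the other edge, 12 and 27 members of the Bdnf libraries had exactly 1 UMI of the excluded genes, with Lrrn4 at 316 and 369 CPM. The excluded genes removed 10, 64, 0 and 4 barcodes that met the marker rule. Those with over 3 such UMIs, 8 in the Bdnf control and 47 in the Bdnf iPCKO, still had Lrrn4 at 217 and 150 CPM, together with 12517 and 14420 CPM of the surfactant gene Sftpc. The excluded barcodes thus held mesothelial and alveolar transcripts side by side.

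The label matched the markers it was chosen by, which is a description and no test. Upk3b and Upk1b encode uroplakins, membrane proteins of the apical surface. Upk3b was at 2967, 2783, 1485 and 1029 CPM in the members and at 0.0641 to 7.31 CPM in all other passing barcodes. Msln, the surface glycoprotein mesothelin, was at 1248, 1355, 903 and 1074 CPM, and Upk1b at 1055, 873, 961 and 1007 CPM. Wt1, a zinc finger transcription factor, was at 378, 274, 349 and 246 CPM, against at most 1.36 CPM elsewhere. Aldh1a2 was at 2047, 1101, 1281 and 738 CPM and Rarres2, which encodes the chemoattractant chemerin, at 3289, 3124, 2184 and 2416 CPM. Upk1b, Aldh1a2 and Rarres2 were not confined to the members. In the fibroblast classes compared below, Upk1b was at 80.1 to 418 CPM in matrix and Aldh1a2 at 54.6 to 136 CPM in adventitial fibroblasts. Rarres2 was at 325 to 655 CPM in matrix and 360 to 606 CPM in adventitial fibroblasts. Upk3b was lower in the Hgf libraries than in the Bdnf libraries, while Msln and Upk1b lay in a narrow range over all 4.

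Genes of most other cell types were lower in the members than in the other barcodes, while those of adventitial fibroblasts were higher in every library. The 10 adventitial genes summed to 3107, 2624, 4368 and 2976 CPM in the members, against 1794 to 2271 CPM in the other barcodes and 11635 to 17098 CPM in adventitial fibroblasts themselves. Myofibroblast genes summed to 1094, 652, 1077 and 425 CPM, above the other barcodes (922, 1042, 361 and 493 CPM) in both controls and below them in both iPCKO libraries. AT1 genes summed to 952, 1224, 844 and 2640 CPM, highest in the Hgf iPCKO members, against 5719 to 6236 CPM in the other barcodes. The summed level of 10 alveolar type 2 genes was 421, 3615, 553 and 224 CPM in the members, against 30695 to 63361 CPM in the other barcodes. Club cell genes summed to 941, 3657, 903 and 3021 CPM, against 8921 to 25107 CPM. In the Hgf members most of this sum was Aldh1a1, whose levels are given below. Immune genes summed to 102, 635, 204 and 67.1 CPM. Ptprc, at 0 in every library, was among the genes the rule excluded. Endothelial genes summed to 858, 1056, 699 and 1633 CPM, most of it Kdr, the VEGF receptor gene that mesothelial cells also carried at 651, 868, 495 and 1454 CPM. Pericyte genes summed to 65.4, 200, 0 and 157 CPM. Matrix fibroblast genes reached 2638, 1497, 437 and 1521 CPM in the members, against 13859 to 28286 CPM in matrix fibroblasts themselves. In the Bdnf iPCKO library the alveolar and airway transcripts lay in few members: the top 10% of members by level held 91.0% of the 1611 Sftpc UMIs, and a single cell held 66.6% of the 1824 Scgb1a1 UMIs. Counts from that library are therefore also given, in an alternative chosen after seeing the data, without the 10 members in which Sftpc and Scgb1a1 together exceeded 50 UMIs per 10000.

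To see how the members varied among themselves, each was thinned to 1500 UMIs and the variance over the mean of UMIs (the Fano factor) was taken per gene and library. Its median over 713 to 1188 genes was 1.19, 1.21, 1.33 and 1.13, where counting noise alone gives about 1. Genes among the 30 most variable in at least 3 libraries were Igfbp5, Gpc3, Col1a1, Col3a1, Dcn, Fos, Lgals1 and Malat1, the mitochondrial mt-Co1, mt-Rnr1 and mt-Rnr2, and the gene model Gm28661. Igfbp5, which encodes a secreted binding protein for insulin-like growth factors, had a mean of 21.1, 19.2, 11 and 18.8 UMIs per thinned cell and a Fano factor of 16.5, 15.6, 9.15 and 10.3. It ranged from 0 to 90 UMIs over the Bdnf iPCKO members. Gpc3, a membrane heparan sulphate proteoglycan, had Fano factors of 6.50, 4.74, 8.54 and 5.27 around means of 11.6, 19.3, 8.43 and 22.9 UMIs. The collagen gene Col1a1 varied far more in the Bdnf iPCKO members (Fano factor 23.0) than in the others (5.50, 4.79 and 3.74), and 1 cell there reached 118 UMIs. The mitochondrial mt-Rnr2 ranked first in the Hgf control (21.1) and the nuclear RNA Malat1 in the Hgf iPCKO (12.6).

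Mesothelial cells were then set against 3 other classes of the same libraries: 562 adventitial fibroblasts and 1468 matrix fibroblasts, the mesenchymal cells nearest to them in kind, and 7727 alveolar type 1 (AT1) cells, the other flat epithelium of the lung. These classes were gated by markers in the same way, and the genes of the gates were left out. The barcodes gated as AT1 were not pure: they held 15948 to 23546 CPM of AT1 genes, but also 27758 to 40958 CPM of AT2 genes and 16849 to 41808 CPM of club cell genes, so that a difference from AT1 cells below is one from barcodes with all 3 kinds of transcript. UMIs were summed per library and class and tested with edgeR's quasi-likelihood test, with the library as a block. Against adventitial fibroblasts 788 of 6863 genes were higher in mesothelial cells (11.5%) and 871 lower (12.7%) at an adjusted p under 0.05. Against matrix fibroblasts 885 of 7250 were higher (12.2%) and 1040 lower (14.3%), and against AT1 cells 1237 of 11654 were higher (10.6%) and 1582 lower (13.6%). Of the 6444 genes tested in all 3 comparisons, 320 were higher and 117 lower in all of them. The cells of each class were chosen by expression, so genes that go with the markers had to differ. The p-values only describe a difference, by its size, its counts and its spread over the 4 libraries together. A low value need not mean an even level. The pseudogene 2410039M03Rik was at 37.0, 37.4, 1281 and 2662 CPM in the members, with a highest adjusted p of 1.38e-13 in this test. Without the Bdnf iPCKO library, which held 106 of the 160 members, the higher counts were 357, 489 and 722 and the lower counts 468, 605 and 912; without the Bdnf control they were 465, 547 and 721 higher and, against AT1, 958 lower.

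Among the genes named for the largest differences were surface, junction and signalling genes. Lrrn4, a leucine-rich repeat membrane protein gene, was at 367, 371, 437 and 268 CPM in the members, had no UMI in adventitial fibroblasts, and was at most 0.568 CPM in matrix fibroblasts and 0.231 CPM in AT1 cells. Pooled over libraries, with the absent UMIs of adventitial fibroblasts set to a floor of 3, it was 481-fold higher than in that class (lower limit 390). The fit gave log2 differences of 10.07 ± 0.48 (SE) against matrix fibroblasts and 10.75 ± 0.49 against AT1 cells (highest adjusted p over the 3 classes 5.326e-16). Muc16, the large surface mucin known as CA125, was at 509, 492, 582 and 403 CPM, with log2 differences of 8.99 ± 0.45, 9.45 ± 0.44 and 9.93 ± 0.47 (highest adjusted p = 5.167e-16). Every library held both genes in the same order of magnitude. Cldn15, a claudin of tight junctions that lets cations through, was at 438, 305, 699 and 470 CPM, without a UMI in adventitial fibroblasts. With the same floor its pooled ratio to that class was 470-fold (lower limit 381). Bnc1, the zinc finger transcription factor basonuclin, was at 145, 123, 58.2 and 157 CPM. With the same floor it was 168-fold higher than in adventitial fibroblasts (lower limit 135). Rspo1, a secreted amplifier of Wnt signals, was at 207, 315, 262 and 559 CPM, with log2 differences of 5.22 ± 0.32, 7.77 ± 0.41 and 6.08 ± 0.35 (highest adjusted p = 3.911e-15). The remaining genes of the 15 with the largest smallest difference were Pkhd1l1, Lgals2, Sbsn, Tmem151a, Ptk2b, Gcnt1, Wdr86 and the cytokine gene Il18, with the pseudogene 2410039M03Rik and the antisense gene Wt1os, whose reads cannot be placed with certainty.

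The 5 genes that were lowest against all 3 classes were Cped1, Timp3, Maob, Sorl1 and Spry1. Timp3, an inhibitor of matrix metalloproteinases, was at 344, 319, 524 and 67.1 CPM in the members and at 1621 to 3910 CPM in the other classes, with log2 differences of -3.50 ± 0.30 against adventitial fibroblasts and -3.71 ± 0.41 against AT1 cells. Spry1, a feedback inhibitor of growth factor signalling, was at 36.9, 48.3, 58.2 and 0 CPM, against 152 to 379 CPM in the other classes. Cped1 was at 31.3 and 19.3 CPM in the Bdnf libraries and had no UMI in the Hgf members, against 213 to 499 CPM elsewhere.

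**Figure D2:**
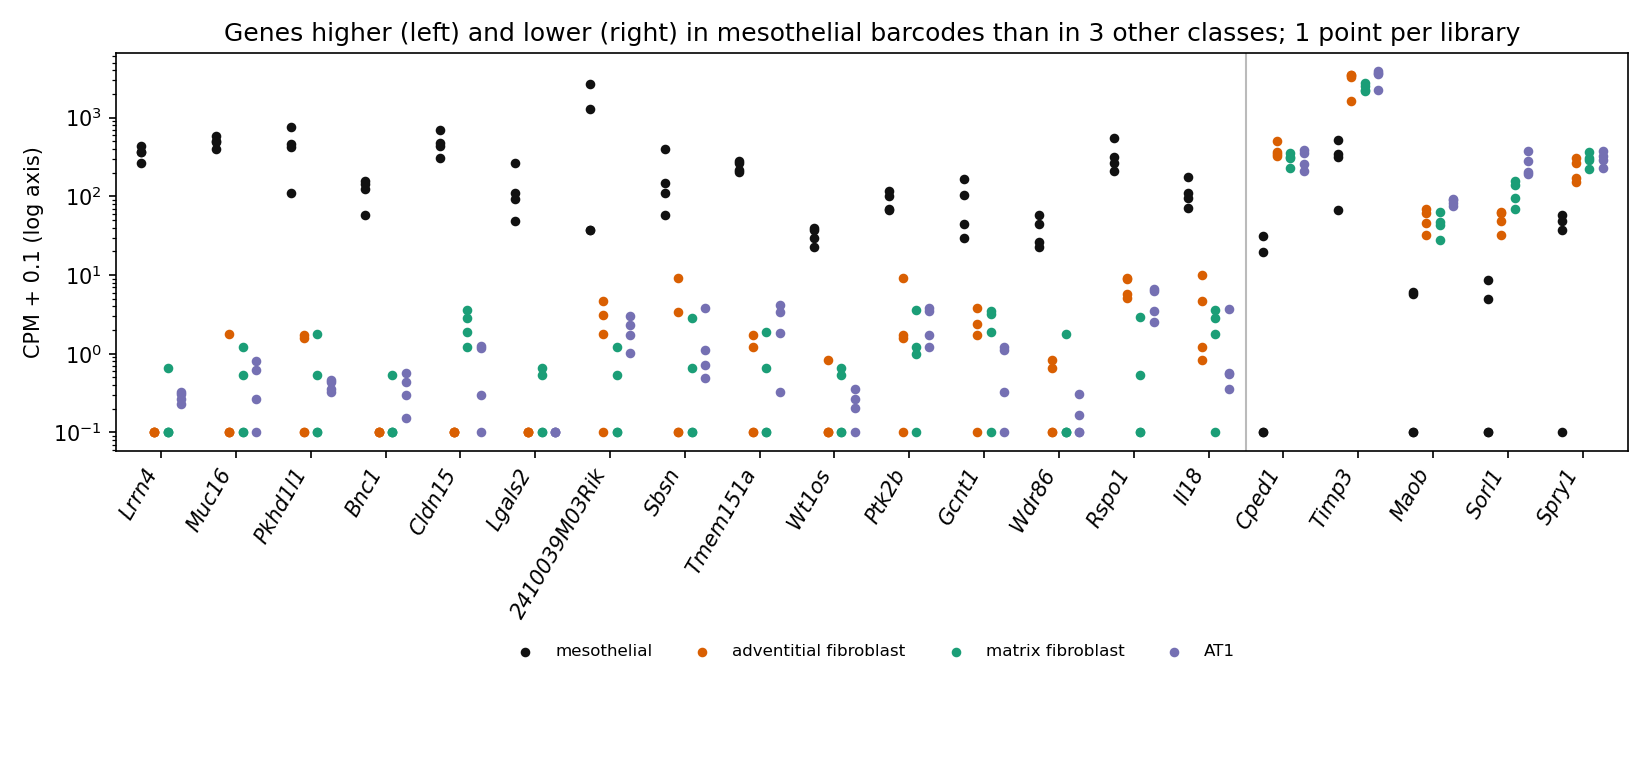
Level in CPM (log axis, with 0.1 added) of the 15 genes named as higher and the 5 named as lower in mesothelial cells, in each of the 4 libraries and 4 cell classes. Lrrn4 sat between 268 and 437 CPM in the mesothelial sums and below 1 CPM in the other classes; Timp3 and Spry1 showed the opposite order.

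Promoter sequences of the marker Upk3b and of 3 of these genes are shown because the genes share a level pattern across the classes. Each runs from 250 bases before to 50 after the RefSeq transcription start, 5′ to 3′ on the strand of the gene, and was found once in GRCm39. Capitals mark GGAATG or its reverse complement CATTCC, the core of the sites that TEAD factors bind. Upk3b lay at chr5:136067100-136067399 (plus strand), Lrrn4 at chr2:132722733-132723032 (minus), Cldn15 at chr5:136996473-136996772 (plus) and Muc16 at chr9:18585850-18586149 (minus).
Upk3b: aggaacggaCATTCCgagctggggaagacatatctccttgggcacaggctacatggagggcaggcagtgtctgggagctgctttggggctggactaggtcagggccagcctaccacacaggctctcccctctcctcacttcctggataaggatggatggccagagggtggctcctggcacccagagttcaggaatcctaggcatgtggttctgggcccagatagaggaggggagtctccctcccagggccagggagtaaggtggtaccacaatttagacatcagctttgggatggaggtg
Lrrn4: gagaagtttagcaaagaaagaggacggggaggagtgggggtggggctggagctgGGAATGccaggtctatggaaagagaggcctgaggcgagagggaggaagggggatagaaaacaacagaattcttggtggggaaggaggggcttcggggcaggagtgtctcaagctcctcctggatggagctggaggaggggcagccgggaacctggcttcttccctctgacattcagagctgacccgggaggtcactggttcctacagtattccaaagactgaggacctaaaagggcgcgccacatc
Cldn15: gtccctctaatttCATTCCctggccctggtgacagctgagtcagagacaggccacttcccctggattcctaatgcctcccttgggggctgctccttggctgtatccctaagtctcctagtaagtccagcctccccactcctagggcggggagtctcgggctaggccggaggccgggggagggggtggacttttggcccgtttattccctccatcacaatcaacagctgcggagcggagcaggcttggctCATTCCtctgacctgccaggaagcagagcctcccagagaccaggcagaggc
Muc16: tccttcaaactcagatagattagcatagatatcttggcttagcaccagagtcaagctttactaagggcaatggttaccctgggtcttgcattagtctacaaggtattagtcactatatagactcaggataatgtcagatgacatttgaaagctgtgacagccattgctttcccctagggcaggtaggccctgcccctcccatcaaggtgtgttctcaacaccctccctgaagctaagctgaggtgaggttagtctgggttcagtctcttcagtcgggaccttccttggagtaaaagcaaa
Of the 15 genes named as higher, 12 matched the table, with 14 promoters. The motif lay in 3 of these 14, those of Cldn15, Gcnt1 and Lrrn4, and in 14.7% of all 32851 promoters. GGGCGG, the core of GC boxes, lay in 4 of the 14 (Bnc1, Cldn15, Tmem151a and Wt1os) and in 35.7% of all, and TATAAA lay in 2 (Gcnt1 and Il18) and in 13.6% of all. Both strands were searched, and GGGCGG and GGAATG can share G bases. These are matches of letters in a short window and say nothing on binding.

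Known mesothelial genes that the rule did not use were nearly all higher. This is a description and no test, since the list was chosen with earlier results of these data known. Genes that go with the markers also had to differ, and some, such as Lrrn4, passed the filter through the mesothelial sums alone. Of all genes tested, 11.5%, 12.2% and 10.6% were higher than in adventitial fibroblasts, matrix fibroblasts and AT1 cells, and 12.7%, 14.3% and 13.6% lower. Of a list of 30 such genes, 23 were tested against adventitial fibroblasts and 22 were higher, with a median log2 difference of 5.85 against -0.04 over all genes. Against matrix fibroblasts 23 of 24 were higher and 1 lower (median 5.21, all genes -0.04), and against AT1 cells 22 of 24 were higher and 2 lower (3.90, all genes -0.15). The exceptions were Hsd11b1, lower than in matrix fibroblasts (-4.43 ± 0.40), and Pdpn and Krt7, lower than in AT1 cells (-1.16 ± 0.35 and -1.18 ± 0.35). Gpm6a, a neuronal-type membrane glycoprotein, was at 1674, 1605, 1689 and 1566 CPM, a narrow range, and its smallest log2 difference was 3.34 ± 0.37, against AT1 cells. Gpc3 was at 8004, 12467, 5125 and 15371 CPM and Igfbp6 at 2726, 1521, 2679 and 2237 CPM. Calb2 and Itln1, which mark mesothelium in other settings, had no UMI in the members of any library.

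The epithelial side of the mesothelium showed against the fibroblasts. Over all genes, 11.5% were higher and 12.7% lower than in adventitial fibroblasts, and 12.2% and 14.3% than in matrix fibroblasts. Against AT1 cells these shares were 10.6% and 13.6%. Of the keratin and junction genes, 9 of 12 were higher than in adventitial fibroblasts and 9 of 13 higher than in matrix fibroblasts (medians 3.84 and 2.46), but against AT1 cells 5 of 18 were higher and 10 lower (median -1.13). Krt19, a keratin of simple epithelia, was at 821.5, 419, 932 and 694 CPM and was higher in all 3 comparisons (7.38 ± 0.38, 5.66 ± 0.33 and 1.09 ± 0.33). Krt8 had a log2 difference of 3.54 ± 0.38 against adventitial fibroblasts and of -0.37 ± 0.32 against AT1 cells (adjusted p = 0.484). E-cadherin, Cdh1, was at 17.1 and 18.1 CPM in the Bdnf members and without a UMI in the Hgf members, against 154 to 247 CPM in the other barcodes. Ezr, which ties microvilli to the cytoskeleton, was at 1481, 1388, 1776 and 895 CPM. For the glycocalyx and surface fluid, Slpi, Podxl, Aqp1 and Muc16 were higher in all 3 comparisons. Of that list 4 of 7, 5 of 8 and 6 of 11 genes were higher than in adventitial fibroblasts, matrix fibroblasts and AT1 cells. Muc1 was lower than in matrix fibroblasts and AT1 cells, and Sdc1 lower than in AT1 cells. The water channel gene Aqp1 was at 1924, 2028, 2504 and 2193 CPM, against 401 to 511 CPM in the other barcodes. Podxl, an anti-adhesive sialomucin, was at 93.8, 100.2, 87.4 and 67.1 CPM.

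The mesenchymal side showed against AT1 cells. The counts here stand beside 10.6% of all genes higher and 13.6% lower than in AT1 cells. Against adventitial fibroblasts the shares of all genes were 11.5% and 12.7%, and against matrix fibroblasts 12.2% and 14.3%. Of the interstitial matrix genes 18 of 21 were higher than in AT1 cells and 1 lower (median 3.61), while 2 of 22 were higher and 16 lower than in adventitial fibroblasts (median -1.85). Col1a1 was at 6222, 4572, 4630 and 2014 CPM, with log2 differences of -3.19 ± 0.27 against adventitial fibroblasts, 0.07 ± 0.31 against matrix fibroblasts (adjusted p = 0.913) and 4.24 ± 0.41 against AT1 cells. Vimentin, Vim, was at 3351, 1819, 2912 and 2304 CPM, 5.10 ± 0.41 above AT1 cells and -0.04 ± 0.26 from adventitial fibroblasts. Efemp1, a fibulin, and Fmod, which binds collagen fibrils, were higher in all 3 comparisons; Efemp1 was at 1367, 1084, 1136 and 1119 CPM. In the basement membrane list 6 of 17 genes were higher and 8 lower than in adventitial fibroblasts (median -0.51), 8 of 17 higher and 6 lower than in matrix fibroblasts, and 9 of 18 higher and 9 lower than in AT1 cells. The collagen IV genes Col4a1 (-2.06 ± 0.30, -2.08 ± 0.32 and -2.56 ± 0.38) and Col4a2 were lower in all 3 comparisons, Lama5 and Nid2 were higher in all 3, and Col4a3, Col4a4 and Agrn were higher than in both fibroblasts and lower than in AT1 cells. Genes of activation and epithelial to mesenchymal transition were lower on balance against fibroblasts, with 9 of 16 and 11 of 17 lower, while 5 of 15 were higher and 2 lower than in AT1 cells. For mural genes 3 of 3 and 5 of 5 were lower than in the fibroblasts, and 0 of 5 differed from AT1 cells.

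Complement genes, part of innate defence, were among the genes higher in mesothelial cells. Of all genes, 10.6% were higher than in AT1 cells, 12.2% than in matrix fibroblasts and 11.5% than in adventitial fibroblasts. Against AT1 cells 10 of 13 complement genes were higher (median 5.67), against matrix fibroblasts 9 of 12 (2.31) and against adventitial fibroblasts 6 of 12 (0.90), and 0 were lower in each. C3, the central component, was at 2658, 2351, 1543 and 3311 CPM, with log2 differences of 2.14 ± 0.32, 4.34 ± 0.36 and 5.79 ± 0.42. C2 was at 1040, 1209, 1106 and 1588 CPM and C4b, part of the same convertase, at 1123, 1164, 1019 and 3334 CPM. Clu, which holds back the terminal pore, was at 998, 990, 932 and 1454 CPM and 4.85 to 6.18 higher on the log2 scale. C1rl, Cfb, C2, C3, C4b and Clu were higher in all 3 comparisons. The regulator Serping1 did not differ from either fibroblast at the threshold, with a log2 difference of -0.69 ± 0.28 against adventitial fibroblasts. The complement sum was 10531, 10554, 7978 and 15259 CPM, against 432 to 960 CPM in the other barcodes. In adventitial fibroblasts it was 5677, 4880, 8733 and 6322 CPM, so in the Hgf control it was higher there than in the members.

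Several signalling groups had a few members higher against every class. Counts below stand beside 11.5% of all genes higher and 12.7% lower than in adventitial fibroblasts. These shares were 12.2% and 14.3% against matrix fibroblasts, and 10.6% and 13.6% against AT1 cells. Among transcription factors Bnc1, Bnc2, Gata4 and Myrf were higher in all 3 comparisons and Mecom was lower in all 3. Myrf, a membrane-bound factor, was at 350, 287, 349 and 246 CPM and Gata4 at 73.9, 82.1, 87.4 and 67.1 CPM. The Hgf values of Gata4 stand for 3 UMIs each, too few to compare the libraries. Of the growth factors 4 of 17 were higher and 6 lower than in adventitial fibroblasts. Against matrix fibroblasts 8 of 19 were higher and 7 lower, and against AT1 cells 11 of 21 and 4. Rspo1, Igf2 and Efna5 were higher and Vegfa lower in all 3 comparisons. Fgf7, Fgf10, Igf1, Cxcl12 and Vegfd were lower than in both fibroblasts. Igf2 was at 273, 1749, 0 and 268 CPM, against 110, 197, 61.3 and 173 CPM in adventitial fibroblasts. In the Hgf control members 3 UMIs would have been 87.4 CPM, so the absence of Igf2 UMIs there does not show a lower level than in that class. The widest gap lay in the Bdnf iPCKO. Vegfa was at 34.1, 65.2, 116 and 112 CPM, against 1366 to 3396 CPM in AT1 cells. Of the hedgehog and Wnt response list Smo, the hedgehog signal transducer, was at 159, 152, 175 and 134 CPM and higher by 1.04 ± 0.25 and 1.64 ± 0.26 on the log2 scale than in adventitial and matrix fibroblasts. The list as a whole had 3 of 12 genes higher and 3 lower (Dkk3, Hhip and Gli1) against adventitial fibroblasts, 4 higher and 4 lower (Hhip, Axin2, Notum and Ptch1) against matrix fibroblasts, and 9 higher and 0 lower against AT1 cells. Gli1, a target of hedgehog signals, had a log2 difference of -2.22 ± 0.40 from adventitial fibroblasts. Sfrp2, a secreted Wnt antagonist, was at 225, 515, 874 and 1007 CPM and higher by 4.99 ± 0.37, 5.06 ± 0.38 and 9.55 ± 0.44. In the prostaglandin list Ptgs1, Ptger3 and Slco2a1 were higher in all 3, and in the defence list Slpi, Cxcl10, Bst2 and Il33, where Lyz2 was lower in all 3. Against adventitial fibroblasts 4 of 10 defence genes were higher and 5 lower (median -0.50). Of the immediate early genes 13 of 20 were lower than in adventitial and 11 of 19 lower than in matrix fibroblasts, and 5 of 21 were higher and 1 lower than in AT1 cells. Klf2, a factor of flow-exposed endothelium, was higher in all 3 comparisons.

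The targeted genes had few UMIs in mesothelial cells. Bdnf had 9, 31, 4 and 4 UMIs in the members, that is 25.6, 37.4, 116 and 89.5 CPM, beside 30.1, 27.9, 28.4 and 23.9 CPM in the other barcodes. Hgf had 4 UMIs in the Bdnf control members and 0 in the other libraries, where 3 UMIs would have been 3.62, 87.4 and 67.1 CPM. In the other barcodes Hgf was at 7.49, 5.11, 9.21 and 2.74 CPM, lowest in the Hgf iPCKO. Whether the reads of either gene lie in its deleted part is not given in the sources used here. With so few UMIs, neither gene checks the labels within the members. The paper reports depletion of each targeted transcript in the pericytes of its mutant lungs. Pdgfrb, whose promoter drives the recombinase, had 0, 21, 0 and 2 UMIs (0, 25.3, 0 and 44.7 CPM), beside 12.9, 39.1, 13.2 and 66.3 CPM in the other barcodes. In the control members 3 UMIs would have been 8.53 and 87.4 CPM. It was thus seen only in members of the libraries that carry the BAC, and transcripts of the transgene and of the gene itself cannot be told apart. Against fibroblasts, Bdnf was higher in mesothelial cells (2.26 ± 0.45 and 2.02 ± 0.43, adjusted p = 0.000115 and 0.000416) and lower than in AT1 cells (-1.47 ± 0.36). Met, the HGF receptor gene, was at 96.6, 80.9, 87.4 and 112 CPM.

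Between the Bdnf libraries, 648 of the 10035 genes with at least 10 UMIs in both member sums together were past the fold, meaning a ratio of 2-fold or more with a 95% interval that excluded equality. This was 6.46% of genes, with 261 higher (2.6%) and 387 lower (3.86%) in the Bdnf iPCKO. The Hgf control and the Bdnf control, both without CreERT2, gave 364 of 6234 genes (5.84%), with 268 higher (4.3%) and 96 lower (1.54%) in the Hgf control; with 7 against 37 cells and other numbers of UMIs, that share is not on the same footing as the one of the Bdnf pair. Of the calls in the Bdnf pair 40.28% were higher, and 56.94% with median-of-ratios scaling, which shifted the median of all genes from -0.01 to 0.11. In the control pair the same change took the higher share from 73.63% to 37.8% and the median from 0.24 to -0.12. Without the 10 members rich in Sftpc and Scgb1a1 the Bdnf pair gave 237 higher and 374 lower genes.

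H19 had the highest ratio among the genes named in the Bdnf pair. This imprinted noncoding RNA lies at chr7:142129262-142133957 on the minus strand of GRCm39, beside Igf2 at chr7:142204503-142220694, and both are known for high expression before birth and a fall soon after. H19 had 9 UMIs in the 37 control members and 1391 in the 106 Bdnf iPCKO members, that is 25.6 and 1679 CPM. The log2 ratio was 6.04 (5.11 to 7.17), and 5.61 to 7.13 over all settings tried. Igf2, which encodes insulin-like growth factor 2, had 96 and 1449 UMIs, which made 273 and 1749 CPM (log2 ratio 2.68, 2.38 to 2.99). The gene model Gm49394 overlaps Igf2 on the same strand and had 94 and 1188 UMIs, so reads may be split between them. In other classes of the same libraries the ratios were smaller. Adventitial fibroblasts held H19 at 44.7, 157, 116 and 4.55 CPM over the 4 libraries, so that in the Bdnf control it was lower in the members than in this class, and the difference between the 2 classes did not pass the test (log2 difference 1.22 ± 0.58, adjusted p = 0.135). The H19 ratio was 1.81 (1.40 to 2.24) in adventitial fibroblasts, 2.78 (1.91 to 3.76) in matrix fibroblasts and 3.20 (2.27 to 4.30) in AT1 cells, where the levels were 0.651 and 5.99 CPM. For Igf2 it was 0.84 (0.56 to 1.13), 1.97 and 1.84 in the same order.

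Within the Bdnf iPCKO members H19 was uneven from cell to cell. A cell counts here as holding a gene from 1 UMI on, since the deposited values can be fractional. Unthinned, H19 was held by 3 of 37 control members (8.11%), 46 of 106 Bdnf iPCKO members (43.4%), and 0.169% and 0.685% of AT1 cells, at median depths of 9087 and 6527 UMIs in members and 7834 and 4759 in AT1 cells. Thinned to 1500 UMIs per cell, the shares were 5.41% (0.66 to 18.2) and 33.0% (24.2 to 42.8) of members, and 0.113% and 0.286% of AT1 cells. Igf2 was found in 35.1% and 66.0% of thinned members (51.4% and 82.1% unthinned) and in 0.338% and 1.43% of thinned AT1 cells. The highest cell had 235 H19 UMIs, and the top 10% of the cells held 72.2% of them. Of the 46 members with H19, 45 also had Igf2, and 18 of the 106 had neither. Members with H19 were deeper (median 8839 UMIs) than those without (6001), and 3 of the 46 were among the 10 members rich in Sftpc and Scgb1a1. In the Hgf libraries the control members had no UMI of either gene, and the Hgf iPCKO members had 12.5 of Igf2, where 7 cells had a value above 0 and 3 at least 1 UMI, and 2 of H19 in 1 cell.

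**Figure D3:**
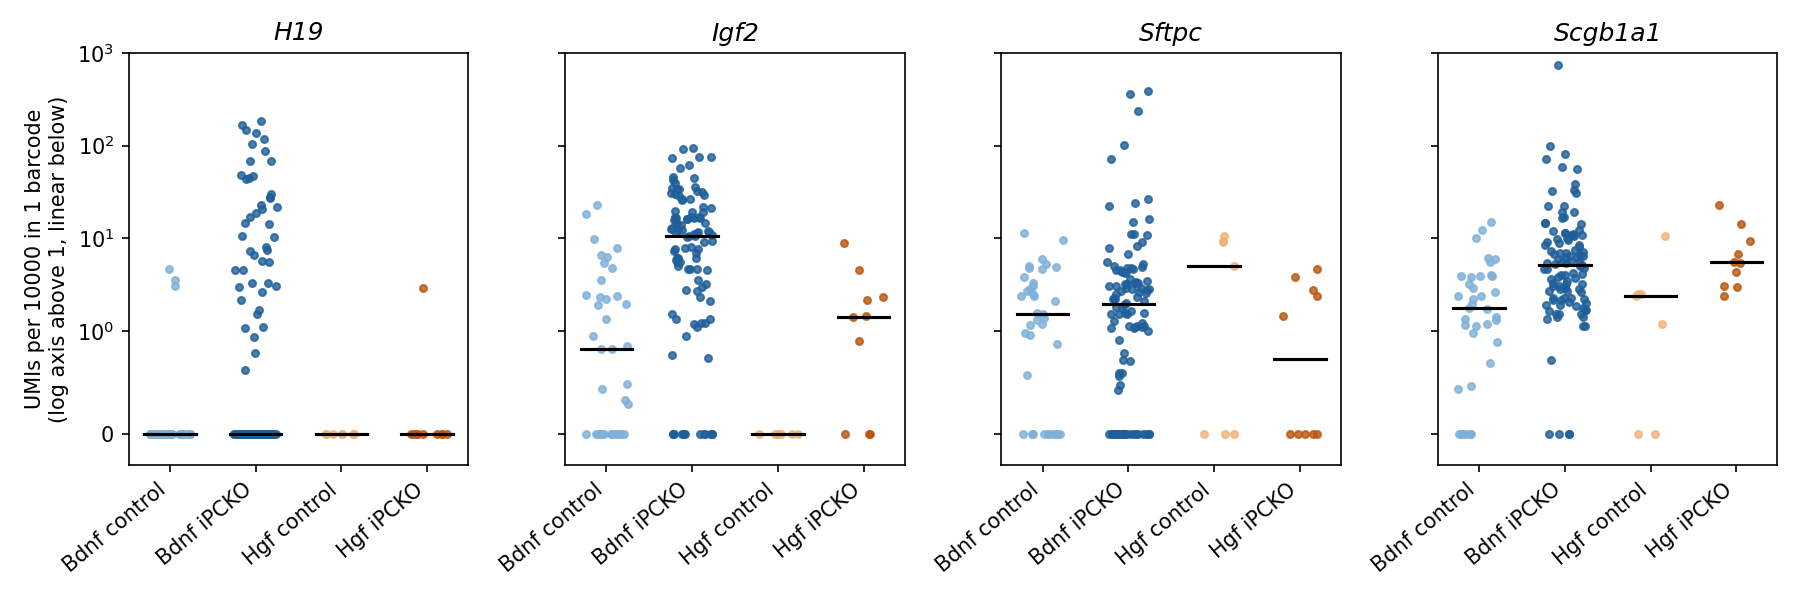
UMIs per 10000 in every mesothelial barcode of the 4 libraries for H19, Igf2, Sftpc and Scgb1a1; the line marks the median of each library. H19 was found in 46 of the 106 Bdnf iPCKO members and in 3 of the 37 Bdnf control members, and Sftpc and Scgb1a1 were high in a few Bdnf iPCKO members.

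Of the 13 other imprinted growth genes with enough UMIs in the Bdnf pair, 3 were higher and 1 was lower, with a median log2 ratio of 0.26, against 2.6% higher, 3.86% lower and a median of -0.01 over all genes. Cdkn1c, a brake on the cell cycle, was at 68.2 and 230.5 CPM (1.76, 1.14 to 2.43). Mest was at 11.4 and 37.4 CPM (1.72) and Dlk1 at 5.69 and 27.8 CPM (2.29). Without doublets Dlk1 was at 0.42, where the control had no UMI and was set to 3 UMIs. Igf2r, the receptor that clears IGF2, was lower (-1.45).

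In the defence and chemokine list 6 of 11 genes were past the fold and higher in the Bdnf iPCKO members, and the median was 1.69 (all genes 2.6% higher, median -0.01). Cxcl1, a neutrophil chemokine, had 1 UMI in control members and 76 in Bdnf iPCKO members (5.01, 2.49 to 10.33), all 76 in 8 cells. Ccl2, a monocyte chemokine, had 1 and 32 UMIs, in 1 and 6 cells. Cxcl10 was at 22.7 and 106 CPM (2.22) and Slpi, a protease inhibitor whose locus overlaps Matn4, at 88.1 and 284 CPM (1.69). Lcn2 had 1 and 25 UMIs and Lyz2, a lysozyme of myeloid and AT2 cells, 29 and 477. Both chemokine genes thus rested on few cells, and without the members called doublets each had under 10 UMIs. Without the 10 members rich in Sftpc and Scgb1a1 the Cxcl1 ratio was 5.13 and that of Lyz2 0.09; without doublets Lyz2 was at -0.12. With 0 UMIs of the excluded genes allowed, Slpi was at 0.58. The same members carried more AT2 and club cell transcripts: 10 of 10 AT2 genes and 5 of 6 club genes were past the fold and higher (medians 2.84 and 2.93, beside 2.6% of all genes), with Sftpc at 185 and 1944 CPM, and their part in the result was not tested. Without the 10 members rich in Sftpc and Scgb1a1 the ratio of the AT2 gene Cxcl15 was -0.0084. Of the pericyte genes 3 of 8 were higher (Postn, Gucy1b1 and Pdgfrb), again beside 2.6% of all genes, and Postn had 0 and 19 UMIs; without doublets each of the 3 had under 10.

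The remaining genes named for the highest ratios were Chia1 (1 and 49 UMIs, 4.38), Tfrc (1 and 38, 4.01), Ctsh (2 and 72, 3.93), Nr4a2 (2 and 53, 3.49), Uchl1, Dennd1b and Tmem243. Tfrc, the transferrin receptor gene, lay in 20 Bdnf iPCKO members and Dennd1b in 29, while the acidic chitinase gene Chia1 lay in 9 and had under 10 UMIs in all without doublets or without the 10 members. Without doublets Tfrc was at 1.27, but the control then had no UMI and was set to 3 UMIs. That value therefore does not show a smaller difference. Ctsh was at 2.00 without doublets. In the glucocorticoid and clock list 5 of 18 genes were higher (Mt1, Mt2, Sgk1, Nr1d2 and Tef; median 0.89), beside 2.6% of all genes with a median of -0.01. The metallothionein gene Mt2 was at 165 and 480 CPM (1.54, 1.14 to 1.97), and its ratio was 2.33 in AT1 cells and 0.02 in adventitial fibroblasts. Egr1, an immediate early gene, was at 978 and 2059 CPM (1.07, 0.91 to 1.25), with 0.95 in matrix fibroblasts and 0.96 in AT1 cells.

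Among the genes named for the lowest ratios in the Bdnf pair, Fndc1, a fibronectin type III domain protein gene, had 219 UMIs in 21 control cells and 96 UMIs in 27 Bdnf iPCKO cells, or 622 and 116 CPM (-2.43, -2.79 to -2.07). Its ratio pointed the other way in adventitial fibroblasts (0.36), matrix fibroblasts (1.24) and AT1 cells (1.18). Sod3, the extracellular superoxide dismutase, was at 333 and 57.9 CPM (-2.52, -3.04 to -2.02), beside -0.52 and -1.22 in the adventitial and matrix fibroblasts. Igfbp3 had 35 and 12 UMIs (-2.78), Pcolce2, an enhancer of procollagen processing, 39 and 13 (-2.82), and Fgf1 42 and 21 (-2.24). The control UMIs of Igfbp3 lay in 3 of 37 cells, those of Pcolce2 in 5, and 42.9% of those of Fgf1 in 1. Fgf9, a growth factor gene of the developing pleura, was at 76.7 and 33.8 CPM (-1.18, -2.00 to -0.36), and at -0.63 without doublets. Scube2, Elovl7, Thy1 and Ablim3 were also named. Gabbr2 had the lowest ratio of those named (-5.56), and its 40 control UMIs all came from 1 cell. Matrix fibroblast genes were lower too, 6 of 9 with a median of -1.86 (all genes 3.86% and -0.01). Among them were Inmt (93 and 51 UMIs, a ratio of -2.10), Enpep, Tcf21 and Mfap4. In members with at least 4 markers Inmt was at 0.07 and Enpep at 0.31. The 34 control UMIs of Tcf21 lay in 3 cells, and the part of matrix fibroblast transcripts in these ratios was not tested.

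In the Bdnf pair, of the mesothelial identity genes 1 of 26 was higher (Slpi) and 3 lower (Hsd11b1, Dmkn and Anxa8), with a median of -0.25, beside 2.6% and 3.86% of all genes. Of the keratin and junction genes 0 of 17 were past the fold, beside 6.46% of all genes (median -0.43), and of the complement genes 0 of 13 (-0.01), with C3 at -0.18 (-0.29 to -0.06). The log2 ratio of Gpc3 was 0.64 (0.58 to 0.70), that of Krt19 -0.97 (-1.20 to -0.74) and that of Vim -0.88 (-0.99 to -0.77). These intervals exclude equality of the summed UMIs but lie near or under the 2-fold limit.

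**Figure D4:**
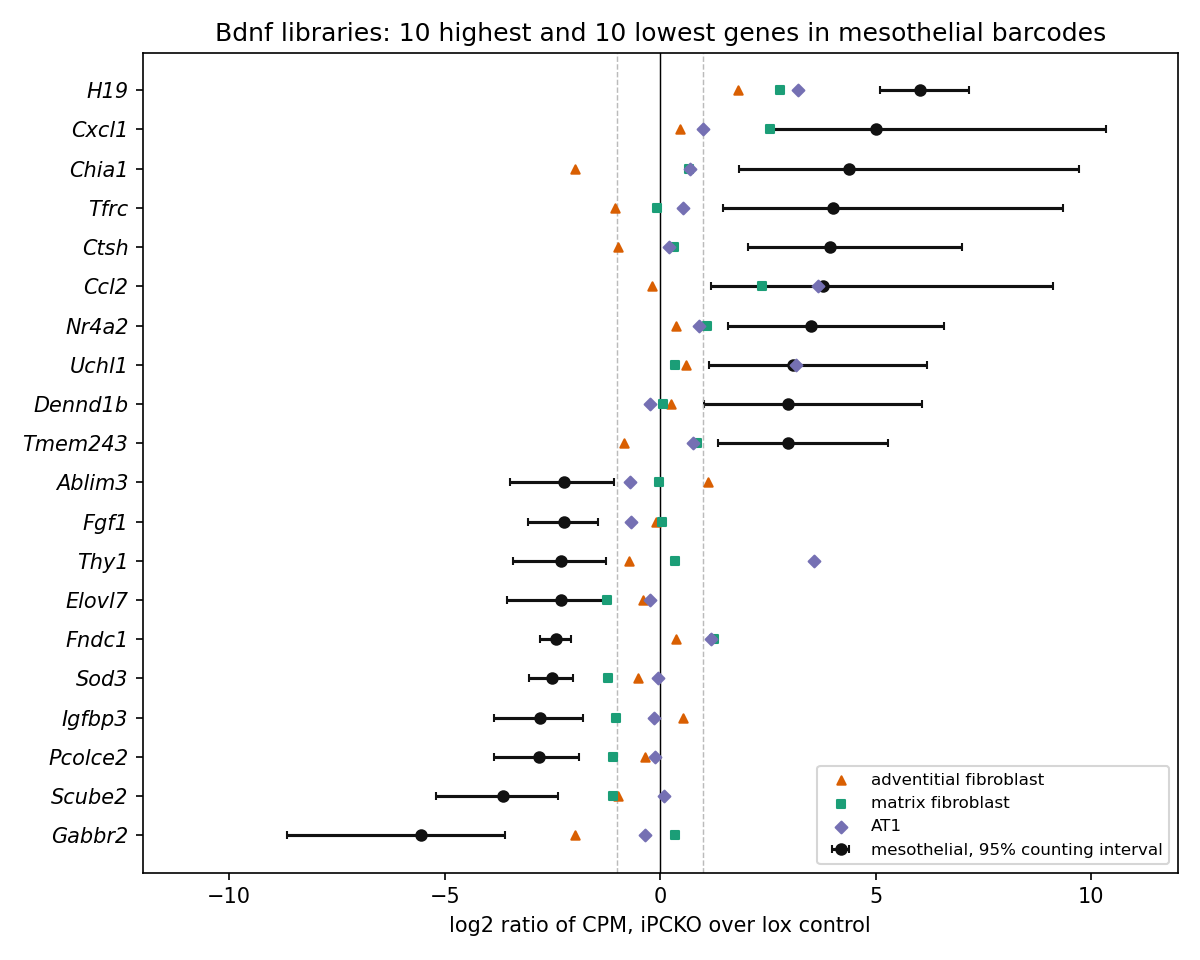
Log2 ratio of CPM, Bdnf iPCKO over Bdnf control, for the 20 genes named by ratio. Black points with 95% counting intervals are the mesothelial members, coloured points without intervals are the adventitial fibroblasts, matrix fibroblasts and AT1 cells of the same libraries. H19 stands at 6.04 in the members and at 1.81 to 3.20 in the other classes, and Fndc1 lies below 0 only in the members.

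Between the Hgf libraries 7 control cells were set against 10 Hgf iPCKO cells. Of 1433 genes with at least 10 UMIs, 238 were past the fold (16.6%), with 131 higher (9.14%) and 107 lower (7.47%). The higher share of calls was 55.04%, and 62.35% with median-of-ratios scaling. Mt1 and Mt2, metallothioneins that bind zinc and copper and answer to glucocorticoids, had 1 and 2 UMIs in the control and 68 and 69 in the Hgf iPCKO, with log2 ratios of 5.71 (3.18 to 11.03) and 4.73 (2.82 to 7.80). Glul, glutamine synthetase, was at 291 and 2976 CPM (3.35, 2.43 to 4.45) and Fmo2, a flavin monooxygenase of the lung, at 262 and 2640 CPM (3.33, 2.36 to 4.50). These genes pointed the same way in the other classes: the Mt1 ratio was 2.54, 2.32 and 3.08 in adventitial fibroblasts, matrix fibroblasts and AT1 cells, and the Glul ratio 2.34, 2.12 and 1.91. Klf9 and Txnip were likewise higher in all 4 classes. Of the glucocorticoid and clock genes 4 of 6 were higher (median 2.91, beside 9.14% and -0.02 over all genes), with Per1 at 1 and 13 UMIs. Nr1d1 was at 0 and 22 UMIs, a ratio of 2.49 with the control set to 3 UMIs. The others named were Dctn6, Net1, Ap4e1, whose locus overlaps Gm56315, and Sparcl1, which was higher in the members (2.40) and in AT1 cells (0.76) and lower in both fibroblasts (-0.84 and -0.62).

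Among the genes named for the lowest ratios in the Hgf pair, Serpinh1, the collagen chaperone HSP47, was at 1485 and 224 CPM (-2.73, -3.87 to -1.74), with -2.96, -2.15 and -1.87 in the other classes. Calr was at 1543 and 291 CPM (-2.41, -3.41 to -1.51), and Hspa5, the chaperone BiP, at 1893 and 470 CPM (-2.01, -2.79 to -1.28). Pdia3, a disulphide isomerase of the endoplasmic reticulum, pointed the same way (-2.02). Of the heat shock genes 2 of 7 were higher (Hspb1 and Hspa8) and 1 lower (Hsp90aa1), with a median of 1.89 (all genes 9.14% higher, 7.47% lower and a median of -0.02). Without the 4 control members called doublets Calr was at -1.23 and Pdia3 at -0.88. Lgals1 had 49 and 6 UMIs (-3.41) and Igfbp4 34 and 1 (-5.47), in 3 control cells each. Fstl1, Hnrnpa2b1 and Myl6 completed the list with the mesothelial gene Pkhd1l1, at 26 and 5 UMIs (-2.76, -4.50 to -1.36). The cell cycle genes Tpx2, Ube2c and Top2a had 11, 14 and 11 UMIs in the control and 0 in the Hgf iPCKO, and all of these came from 1 control cell.

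Of the mesothelial identity genes 2 of 20 were higher (Slpi and Gpc3) and 4 lower (Dmkn, Flrt2, Pkhd1l1 and Krt7) in the Hgf iPCKO members, with a median of -0.40. Over all genes of the Hgf pair 9.14% were higher and 7.47% lower with a median of -0.02, so the higher share of 2 in 20 was near the background. Without doublets Dmkn and Krt7 had under 10 UMIs. In the complement list C4b was at 1019 and 3334 CPM (1.71, 1.17 to 2.28), and its ratio was -1.10 in adventitial fibroblasts, -1.36 in matrix fibroblasts and -2.17 in the other barcodes. C3 was at 1543 and 3311 CPM (1.10, 0.64 to 1.58), with -1.10, -1.29 and -1.24 in the 3 other classes. With 0 UMIs of the excluded genes allowed, C4b was at 0.90 and C3 at 0.30. Of 8 complement genes 3 were higher and 0 lower, with a median of 0.71 (all genes 9.14%, 7.47% and -0.02). Gpc3 was at 5125 and 15371 CPM (1.58, 1.34 to 1.83), with 0.09, -0.10 and 0.05 in the other classes. Kdr was at 495 and 1454 CPM (1.55, with 0.67 at 0 excluded UMIs and 4.56 without doublets) and Aldh1a1, another retinaldehyde dehydrogenase gene, at 553 and 2058 CPM (1.90). Col1a1 was lower, at 4630 and 2014 CPM (-1.20, -1.59 to -0.82), also lower in all 3 other classes, and at -0.65 without doublets. Of the interferon and antigen genes B2m, Ifitm3 and H2-K1 were lower among 5, beside 7.47% of all genes.

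**Figure D5:**
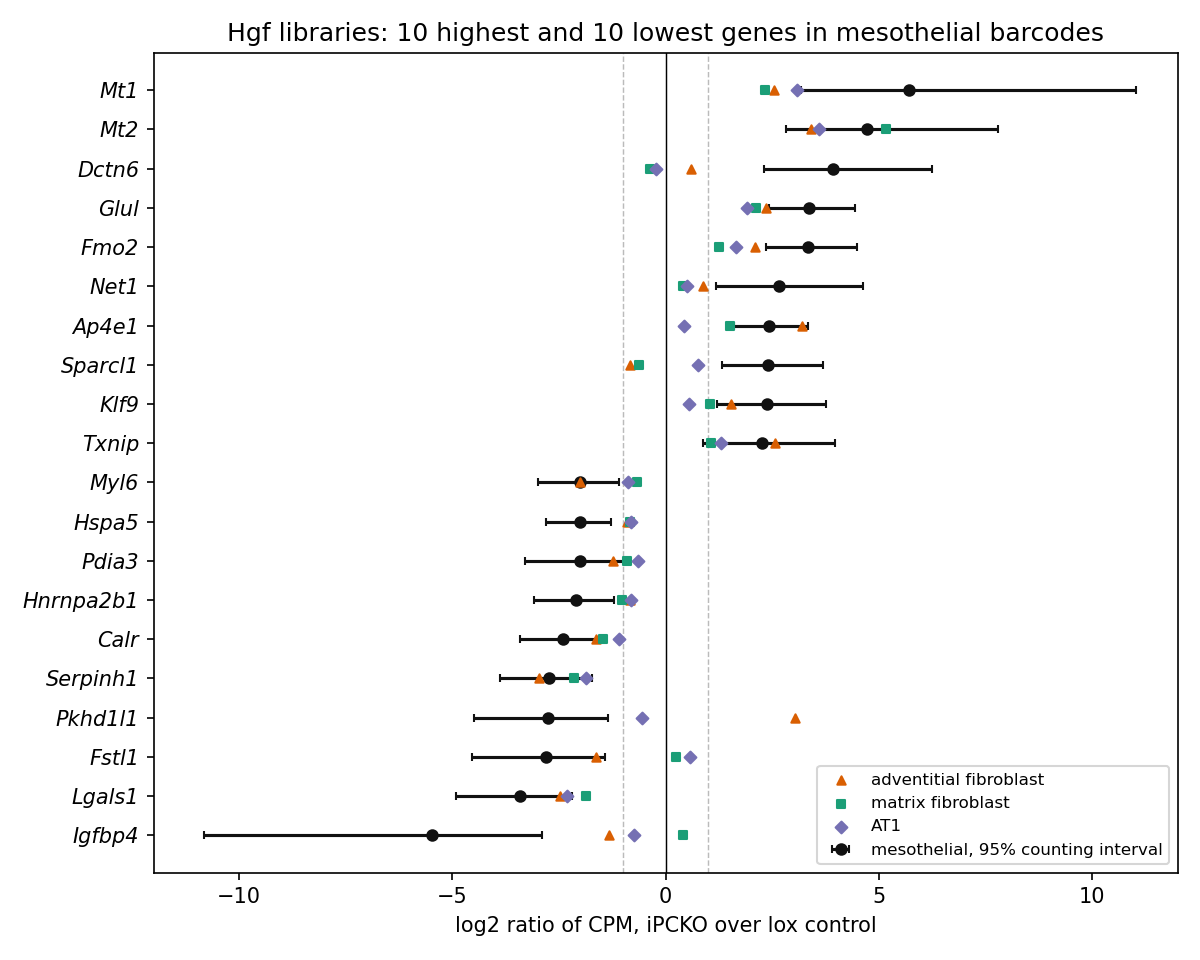
Log2 ratio of CPM, Hgf iPCKO over Hgf control, for the 20 genes named by ratio. Black points with 95% counting intervals are the mesothelial members (10 over 7 cells), coloured points without intervals are the other 3 classes. Mt1, Mt2, Glul, Fmo2, Klf9 and Txnip lie above 0 and Lgals1, Serpinh1 and Calr below 0 in every class drawn.

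The 2 control libraries also differed within the mesothelial cells. The kind of bead used for each is not given in the sources used here, and library and floxed allele cannot be told apart. Rps13-ps1, a ribosomal pseudogene, was at 31.3 and 1106 CPM in the Bdnf and Hgf controls (5.15, 4.15 to 6.26), with ratios of 3.43 to 3.68 in the 3 other classes, and Rps3a1 and Rpl26 were higher in every class as well. Nkain2 was at 392 and 2679 CPM (2.77, 2.38 to 3.16), with a ratio of 2.01 in AT1 cells. Cmss1, Snhg5, Dgkb, Stmn1, Psmb7 and Slpi were also higher, and the 14 Slpi UMIs of the Hgf control lay in 1 cell. Single cells also held 90.9% of the Stmn1 and 83.3% of the Snhg5 UMIs of the Hgf control. The lowest ratios (Stk39, Col6a3, Nid1, Acadm, Scd2, Myo5b, Dnah7a, Srpr, Hlf and Arf2) each rested on 1 UMI in the Hgf control, with Stk39 at 146 and 1 UMIs. Of the mesothelial identity genes Slpi, Dmkn and Krt7 were higher and 0 lower among 26 (median 0.10), where all genes had 4.3% higher, 1.54% lower and a median of 0.24. Without doublets Dmkn and Krt7 changed sign, to -1.60 and -1.87.

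Some genes were past the fold in both genotype pairs. Of 1425 genes tested in both, 41 were past the fold in the Bdnf pair and 233 in the Hgf pair, and 15 in both, that is 36.59% of the first and 6.44% of the second, beside 16.4% and 2.88% of all 1425 genes past the fold in the Hgf and the Bdnf pair. Of these 15, 13 had the same direction and 2 opposite directions. Slpi (1.69 and 1.30), Mt1 (1.15 and 5.71), Mt2 (1.54 and 4.73) and Igf2 (2.68 and 1.62) were higher in both, with the club cell gene Scgb1a1 and Gm49394. The Igf2 ratio of the Hgf pair had the control 0 set to 3 UMIs, and its interval began at 1.09. Of the 45 Slpi UMIs in the Hgf iPCKO members 30 lay in 1 cell. In the Hgf pair, with 0 excluded UMIs allowed, Slpi was at 0.53 and Igf2, with the control again set to 3 UMIs, at 0.85. Fndc1 was lower in both, with 18 UMIs in 2 of the 7 Hgf control cells and 0 in the Hgf iPCKO, as were Igfbp4 (-1.03 and -5.47), Dmkn, Lgals7, Il18r1, Ly6e and Adamts5. Slpi and Dmkn also differed between the control libraries, by 2.21 and 1.70. Igf2 was past the fold there too, with 96 UMIs in the Bdnf control and 0 in the Hgf control.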

How the data were processed

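The authors sequenced BD Rhapsody whole-transcriptome libraries and aligned them to GRCm39 with STARsolo (STAR 2.7.10a). Standard and enhanced beads were both used, mapped with their own adapter settings, and which library used which is not given in the sources used here; 2 Gencode releases are named, so the one behind the files is uncertain. The deposited values are estimated counts of UMIs per gene and barcode, with reads that fit several genes shared out by expectation maximisation and no filter on cells, so part of the values is fractional. The authors' own cell filters and clusters were not used here. The 2 cortex libraries were not used.

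Barcodes were selected by the rule given above, and the compared classes by at least 3 of their markers: Pi16, Dpp4, Col14a1, Clec3b, Cd248 and Dcn with Pi16 or Col14a1 (adventitial fibroblasts), Npnt, Ces1d, Inmt, Tcf21, Itga8 and Mfap4 with Inmt or Tcf21 (matrix fibroblasts), and Ager, Rtkn2, Hopx, Cldn18, Aqp5 and Akap5 with Ager or Rtkn2 (AT1), each with the same limit on excluded genes (AT1 without Rtkn2) and no UMI of Upk3b or Msln. UMIs were summed per library and class and, for tests, rounded. Ratios between libraries used CPM with a 95% conditional exact interval. Genes with 0 UMIs in 1 library were set to a floor of 3 UMIs. Classes were compared with edgeR 4.0.16 (TMM, quasi-likelihood, Benjamini-Hochberg over all genes) in R 4.3.3, with DESeq2 1.42.0 as an alternative, and the scripts were tested on simulated data. Doublets were called with Scrublet in scanpy 1.11.5 (expected rate 0.1) and kept. Python 3.11.15 was used. The members, gene lists and tests were chosen with earlier results of these data known.

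Genes were named by rule: the 15 genes highest and 5 lowest by their least extreme difference over the 3 class comparisons, the 10 highest and 10 lowest ratios per pair of libraries among genes with at least 30 UMIs and an interval that excludes equality (without mitochondrial genes, unnamed models and markers of other cell types), the genes most variable in at least 3 libraries, and in each list the members past the fold or highest in level. Genes named as single exceptions or for a level beside another class were chosen after their values were seen. Results of a few single genes are not reported here.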

Additional observations from a re-analysis of the deposited data

Results flagged for a closer look

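Meis2, a homeobox transcription factor gene, had ratios that pointed in opposite directions in the 2 genotype pairs. Its UMIs numbered 20 among Bdnf control members and 100 among Bdnf iPCKO members, a log2 ratio of 1.09 (0.38 to 1.86). In the Hgf libraries these numbers were 8 and 2, a log2 ratio of -2.38 (-5.65 to -0.05). It was also higher in the Hgf control than in the Bdnf control, at 233 against 56.9 CPM (2.03, 0.64 to 3.28). The difference between the pairs was not tested, since each genotype had 1 library.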

How the results depend on the processing

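The cell numbers limit these results: the Hgf sums rest on 7 and 10 cells, 1 library stands for each genotype, and intervals cover counting error only. No paired analysis between genotypes was run, because each genotype had 1 library. Mesothelial shares moved with 0 UMIs allowed over the excluded genes (0.149% in the Bdnf control and 0.332% in the Bdnf iPCKO) and with a mitochondrial share of at most 10% (0.0130% in the Hgf control, which took the log2 ratio of the Hgf shares to 2.31, and that of the Bdnf shares to 0.76 with an interval that includes 0). For genes past the fold, a minimum of 50 UMIs gave 121 higher and 94 lower in the Bdnf pair, 36 and 22 in the Hgf pair and 77 higher in the control pair. With no minimum the Hgf pair gave 177 lower and the control pair 433 higher. With 0 excluded UMIs the Hgf pair gave 67 higher and the control pair 152 higher and 31 lower, and without doublets the Hgf pair gave 83 higher. A mean over cells gave 458 higher in the Bdnf pair and 235 lower in the control pair, and median-of-ratios scaling 141 higher and 232 lower in the control pair. Leaving out each library in turn gave 357 to 912 higher and 468 to 1059 lower genes against adventitial fibroblasts, 489 to 1029 and 605 to 1157 against matrix fibroblasts, and 721 to 1483 and 912 to 1661 against AT1 cells, the lowest values without a Bdnf library. With no filter 1604 genes were lower than in matrix fibroblasts. In an alternative chosen after seeing the data, the 2 Bdnf libraries alone gave 1236 and 1345 genes higher than in adventitial and matrix fibroblasts. The cause of these changes was not tested, other than that the filters and the smaller sets change how many genes and cells enter. For 204 reported ratios, named by rank or past the fold in a gene list, 1706 values of single genes were taken under an alternative. Of these, 1587 stayed within their interval, 112 moved and 7 changed sign. Many of the 1587 could not move. A minimum of 1500 UMIs in all libraries (204 values) left the same members. No filter (204) and a minimum of 50 UMIs (122) do not change the ratio of a gene. With doublets removed came 54 of the changes, among them Tfrc (1.27, with the control set to 3 UMIs), Ctsh (2.00) and Calr (-1.23). The sign changed with at least 4 markers for Enpep (0.31) and Inmt (0.074) in the Bdnf pair, and without doublets for Lyz2 (-0.12) in the Bdnf pair and for Dmkn (-1.60) and Krt7 (-1.87) in the control pair. It also changed for Cxcl15 in the Bdnf pair without the 10 members rich in Sftpc and Scgb1a1 (-0.0084). The last change was that of Igf2 in the control pair with 0 excluded UMIs (0.30). There the Hgf control had no Igf2 UMI and was set to 3 UMIs, so that sign comes from the floor. Chia1 was at 1.02 with 0 excluded UMIs, where the control had no Chia1 UMI and was set to 3 UMIs.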
